A study of Mus musculus with 24 samples.

Results

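Wild-type mouse cortex was compared with 3 other regions of the wild-type brain by RNA sequencing. The cortex group held 3 of the 24 libraries of the series, labelled as wild-type, dissected cortex of C57BL/6 mice. Its comparison groups were wild-type cerebellum, hippocampus and olfactory bulb of the same strain, with 3 libraries each. Libraries were chosen by label alone and no measured value entered the choice. The other 12 libraries came from the same 4 regions of C57BL/6 mice labelled Cdr1as knockout, which lack a circular RNA of neurons, and the same contrast was computed in them as a repeat in separate samples. The labels give no age or sex, do not describe the borders of the dissections, and do not say whether the libraries of a group came from separate animals. The p-values therefore measure the spread between these libraries, which may be technical.

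The cerebral cortex is a layered sheet whose excitatory, glutamate-releasing neurons arise in the dorsal forebrain and whose inhibitory interneurons migrate in from the ventral forebrain. Neurons of the upper layers project mainly within the cortex and across the midline, neurons of layer 5 send axons to the brainstem and spinal cord, and neurons of layer 6 project to the thalamus. The hippocampus shares the dorsal forebrain origin. The olfactory bulb and the cerebellum are dominated by other neurons, GABA-releasing granule cells in the bulb and glutamate-releasing granule cells in the cerebellum.

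The cortex libraries held 16.88, 9.9 and 27.36 M gene counts (M, mega) for replicates 1, 2 and 3, within the range of 7.4 to 30.46 M of all 12 wild-type libraries. Across genes, log2 CPM (counts per M gene counts) of cortex libraries correlated with each other at r = 0.957 to 0.986. The same measure was 0.949 to 0.97 between cortex and hippocampus libraries, 0.882 to 0.934 between cortex and olfactory bulb, and 0.852 to 0.899 between cortex and cerebellum. The spread between replicates was widest in the cortex, with a median coefficient of variation of 15.8% over 13367 genes, against 9.29% in cerebellum, 13.4% in hippocampus and 11.2% in olfactory bulb. Reads assigned to no gene came to 20.3%, 56.2% and 34.9% of all reads in cortex replicates 1 to 3. That share differed more among the cortex libraries than it did over the 9 other wild-type libraries, which spanned 37.0% to 62.9%. Its part in the results was not tested beyond a fit that took it as a covariate.

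The cortex label was checked against 8 cortex marker genes. Their summed level was 1400 to 1670 CPM in cortex libraries, against 136 to 162 CPM in cerebellum, 514 to 581 CPM in hippocampus and 533 to 641 CPM in olfactory bulb. Markers of the other regions were at 210 to 262 CPM in cortex against 4660 to 5100 CPM in cerebellum for the cerebellum list, at 578 to 627 CPM against 1760 to 2150 CPM in hippocampus for the hippocampus list, and at 256 to 351 CPM against 1890 to 2070 CPM in olfactory bulb for the olfactory bulb list. A list of 9 striatum markers, genes of the region that lies beneath the cortex, summed to 595, 926 and 963 CPM in cortex replicates 1 to 3, against 144 to 166 CPM in cerebellum, 81.5 to 96.4 CPM in hippocampus and 174 to 185 CPM in olfactory bulb. All 9 striatum markers passed the test as higher in cortex, as 19.0% of all genes tested did, and in each of them the 3 cortex libraries lay above the 9 others, as they did for 5.18% of all genes tested. The knockout cortex libraries gave 548 to 871 CPM for the same sum. Several striatum markers are also expressed by cortical neurons, so cortical transcripts and striatal tissue cannot be told apart by this list. The part of striatal tissue was not tested. In bulk tissue, fewer cells of a type and less RNA per cell cannot be told apart either.

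Of 16995 genes tested, 3221 (19.0%) were higher and 2458 (14.5%) were lower in cortex than in the mean of the 3 other regions at an adjusted p under 0.05 (edgeR's quasi-likelihood test with Benjamini-Hochberg adjustment). The contrast is the log2 level in cortex minus the mean of the 3 regional log2 levels, so a gene can pass it because of 1 distant region. Its median over all genes tested was -0.01. Most called differences were modest, with a median size of 0.73 on the log2 scale among genes higher in cortex and 0.71 among those lower. Differences of at least 4-fold were found for 394 genes higher and 172 genes lower in cortex.

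By these counts hippocampus was closest to cortex. Among the 3221 genes higher in cortex, the median log2 fold change was 1.11 against cerebellum, 0.78 against olfactory bulb and 0.27 against hippocampus. Hippocampus itself had the highest mean of the 4 regions for 613 of these genes (19.0%), and cortex did for 2215 (68.8%). A second, stricter test asked whether cortex was above, or below, each of the 3 other regions. By that test 203 genes (1.19% of those tested) were highest in cortex and 37 genes (0.218%) were lowest in it. All 3 cortex libraries lay above the 9 others for 880 genes (5.18%) and below them for 444 (2.61%). The median fold change of genes highest in cortex was 1.78 on the log2 scale, and that of genes lowest in it was -1.52.

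Described here are 10 of the 12 largest differences among genes highest in cortex that had a mean level of 1 or more in log2 CPM and no overlap between cortex and the 9 other libraries. Tbr1, a T-box factor of layer 6 and subplate neurons, had 149, 156 and 127 CPM in cortex, against 1.14, 1.0 and 0.735 CPM in cerebellum, 45.1, 47.4 and 57.8 CPM in hippocampus and 15.4, 16.9 and 17.0 CPM in olfactory bulb. The cortex libraries lay far above all others, hippocampus came next and cerebellum was lowest (log2 fold change 3.94 ± 0.11 SE, adjusted p = 3.2e-11).

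Lamp5, a lysosome-associated membrane protein of cortical neurons, averaged 135 ± 17.2 CPM in cortex, against 1.0 ± 0.242 CPM in cerebellum, 25.5 ± 2.94 CPM in hippocampus and 29.5 ± 2.72 CPM in olfactory bulb (SD, n = 3 each). Kcnv1, a silent potassium channel subunit that alters the behaviour of its partners, averaged 126 ± 18.4 CPM in cortex, against 0.162 ± 0.229 CPM in cerebellum, 37.0 ± 6.87 CPM in hippocampus and 20.5 ± 3.15 CPM in olfactory bulb. In both genes no cortex library overlapped any other library. The predicted gene Gm11549, which has no assigned role, had 37.5, 37.6 and 35.3 CPM in cortex, against at most 5.55 CPM in any library of another region. Its cortex values were even, and cerebellum had reads of it in 1 library alone.

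A separate set were genes known best from the striatum. The dopamine receptor genes Drd1 and Drd2 and the adenosine receptor gene Adora2a had log2 fold changes of 4.64 ± 0.28, 3.97 ± 0.4 and 3.93 ± 0.18 (SE). In all 3 of these genes cortex replicate 1 was the lowest of the cortex libraries, and in the striatum sum it was likewise lowest. Drd1, for example, had 37.5, 66.2 and 68.2 CPM in cortex replicates 1 to 3, against at most 9.62 CPM elsewhere. These 3 are members of the striatum list, 7 of whose 9 members are among the 203 genes highest in cortex. The part of striatal tissue in these members was not tested. Isl1, Chat and Gbx1, outside that list, were also among the 203, with log2 fold changes of 8.08, 7.28 and 6.91. In knockout libraries the values were 7.59, 6.68 and 5.82. The filter on level and overlap left these genes out of the 12 largest, and the part of tissue from outside the cortex in them was not tested.

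The peptide precursor Pdyn, which gives dynorphins, averaged 37.9 ± 7.25 CPM in cortex, against 9.83 ± 2.01 CPM in hippocampus, the next highest region. The sodium channel subunit Scn4b had 143, 188 and 284 CPM in cortex, against 91.9 ± 9.16 CPM (SD) in cerebellum, 18.5 to 25.2 CPM in hippocampus and 2.39 to 3.73 CPM in olfactory bulb. It was the only one of the 10 in which cerebellum came second, and cortex replicate 1 was the lowest of its group, as in the striatum sum. Pdyn and Scn4b are not on the striatum list, and the part of striatal tissue in both was not tested. Ecel1, a neuronal membrane peptidase, averaged 18.6 ± 5.84 CPM in cortex and at most 1.6 ± 0.816 CPM, in hippocampus, in the others.

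**Figure D1:**
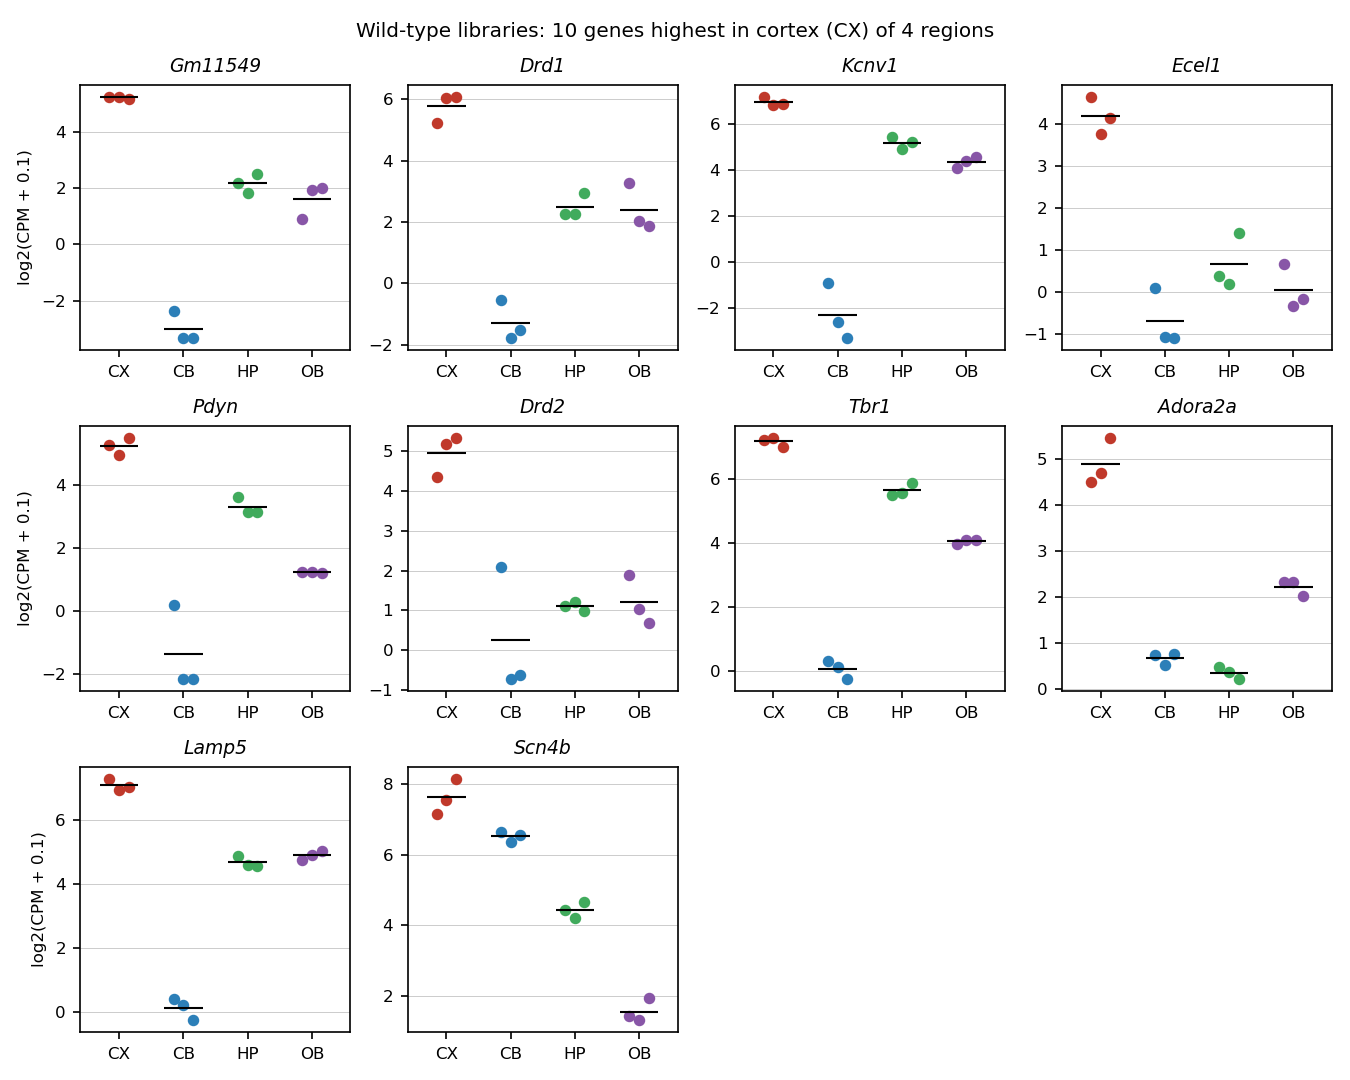
Levels of 10 of the 12 genes with the largest differences among those highest in cortex that passed the filter on level and overlap, as log2(CPM + 0.1), in the 12 wild-type libraries. CX is cortex, CB cerebellum, HP hippocampus and OB olfactory bulb, each point is 1 library and each bar is the mean of 3 points; the cortex points lie above all others in every panel.

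Windows from 250 bases before to 50 bases after annotated starts were read for motifs (RefSeq, GRCm38.p6, given in the direction of transcription). They are shown for Cplx3, a gene highest in cortex that acts at synapses, and for Homer3, a synaptic gene lowest in cortex. Capitals mark the E-box CAGCTG, which reads the same on both strands, and the nuclear receptor half-site AGGTCA or its reverse complement TGACCT. E-boxes are bound by factors of the NeuroD kind and AGGTCA by the ROR receptors, to which the cortical layer 4 factor Rorb belongs. The windows lie at chr9:57606232-57606531 (minus strand, Cplx3) and chr8:70282749-70283048 (plus, Homer3).
Cplx3: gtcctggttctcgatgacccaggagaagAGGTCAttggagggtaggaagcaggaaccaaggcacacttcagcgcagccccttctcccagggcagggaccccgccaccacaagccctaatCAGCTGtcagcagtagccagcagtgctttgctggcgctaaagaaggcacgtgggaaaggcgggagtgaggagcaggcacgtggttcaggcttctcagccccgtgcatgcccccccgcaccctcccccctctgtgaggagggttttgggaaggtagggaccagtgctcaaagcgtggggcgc
Homer3: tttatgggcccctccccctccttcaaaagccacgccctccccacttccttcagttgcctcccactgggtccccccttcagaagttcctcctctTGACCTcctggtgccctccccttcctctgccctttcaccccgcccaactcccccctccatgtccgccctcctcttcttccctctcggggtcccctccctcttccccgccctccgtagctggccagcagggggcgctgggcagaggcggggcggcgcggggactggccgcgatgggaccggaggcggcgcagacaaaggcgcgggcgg

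CAGCTG stood in 45 of 200 windows (22.5%) of genes highest in cortex and in 4 of 34 windows (11.8%) of genes lowest in it, against 16.0% of the 15130 windows of all genes tested and 16.3% of all 32851 windows. AGGTCA, on either strand, stood in 10.5% of windows of genes highest in cortex and 23.5% of windows of genes lowest in it, against 12.5% of windows of all genes tested and 16.3% of all windows. A second E-box, CAGATG, or its reverse complement CATCTG, stood in 20 of 200 windows of genes highest in cortex and 20.6% of windows of genes lowest in it. It stood in 12.2% of windows of all genes tested and 17.2% of all windows, and in neither of those printed. These are counts of letters in short windows, several of which can belong to 1 gene, and no test was made of them.

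Genes of the upper layers were mostly higher in cortex. For this and each later list, the shares over all genes tested were 19.0% higher and 14.5% lower. Of 23 tested members of a list of upper layer genes, 16 were higher and 4 lower, with a median log2 fold change of 1.17, and 6 were highest in cortex, among them Lamp5, Mef2c, Plxnd1, Unc5d and Otof. Mef2c, an activity-regulated transcription factor, had 819, 888 and 673 CPM in cortex, against 36.1 to 57.3 CPM in cerebellum, 132 to 191 CPM in hippocampus and 348 to 429 CPM in olfactory bulb (2.52 ± 0.14 SE, adjusted p = 1.63e-08). Plxnd1, a semaphorin receptor, averaged 147 ± 29.3 CPM in cortex and at most 42.9 ± 11.3 CPM, in hippocampus, elsewhere. The related homeobox genes Cux1 and Cux2, both used as upper layer markers, differed from each other. Cux2 had 175, 128 and 153 CPM in cortex, against 59.9 to 68.1 CPM in cerebellum, 30.3 to 65.7 CPM in hippocampus and 102 to 119 CPM in olfactory bulb (1.17 ± 0.17 SE, adjusted p = 1.22e-04). Cux1 averaged 143 ± 14.7 CPM in cortex, below cerebellum (213 ± 14.3 CPM) and olfactory bulb (227 ± 5.07 CPM) and above hippocampus (59.7 ± 6.51 CPM), with a log2 fold change of 0.01 ± 0.09 (SE, adjusted p = 0.962).

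In the layer 4 list 7 of 10 tested members were higher and 1 was lower, with a median of 1.6. Rorb, the nuclear receptor that shapes layer 4 neurons of the sensory areas, had 138, 151 and 146 CPM in cortex, against 26.1 to 38.6 CPM in cerebellum, 48.5 to 57.5 CPM in hippocampus and 31.2 to 48.7 CPM in olfactory bulb (1.85 ± 0.12 SE, adjusted p = 1.05e-07). Rspo1, a secreted enhancer of Wnt signalling, was highest in cortex at a low level, 5.58 ± 0.639 CPM, against at most 0.858 ± 0.103 CPM, in hippocampus (4.06 ± 0.32 SE). Tmem215, a membrane protein of unassigned role, was higher in cortex than the mean of the regions, with 12.4 ± 2.59 CPM in cortex and 8.68 ± 2.05 CPM in hippocampus.

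Of 19 tested layer 5 genes 13 were higher and 2 were lower in cortex, against 19.0% and 14.5% of all genes tested, with a median of 0.8. With the cerebellum libraries left out 7 were higher. Fezf2, the factor that specifies neurons projecting below the cortex, had 20.9, 20.5 and 20.3 CPM in cortex, against 0 to 0.122 CPM in cerebellum, 31.9 to 45.8 CPM in hippocampus and 1.27 to 1.62 CPM in olfactory bulb. Crym, a thyroid hormone-binding protein, had 48.5 ± 9.42 CPM in cortex, against 175 ± 42.7 CPM in hippocampus and 1.99 ± 1.28 CPM in olfactory bulb. In both genes the hippocampus libraries lay above the cortex libraries, with log2 fold changes of -0.95 for Fezf2 and -1.85 for Crym in cortex against hippocampus. Bcl11b, which acts downstream of Fezf2, averaged 163 ± 12.6 CPM in cortex, against 154 ± 1.98 CPM in olfactory bulb, 205 ± 29.2 CPM in hippocampus and 2.91 ± 3.43 CPM in cerebellum. Cerebellum replicate 1 had 6.87 CPM of it and replicates 2 and 3 had 0.879 and 0.979 CPM. Its difference of 1.79 ± 0.33 (SE) rested on cerebellum and was -0.13 without it.

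Rbp4, a retinol carrier of layer 5 neurons, kept a mean above each other region, with 8.18 ± 0.834 CPM in cortex and 4.64 ± 0.356 CPM in hippocampus, though its stricter test did not pass. Etv1, an ETS factor also called Er81 and a layer 5 marker, went the other way and was lowest in cortex. It had 82.2, 74.5 and 71.8 CPM in cortex, against 380 to 422 CPM in cerebellum, 105 to 114 CPM in hippocampus and 126 to 157 CPM in olfactory bulb (-1.26 ± 0.09 SE, adjusted p = 2.86e-07).

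For layer 6 and the subplate 14 of 26 tested members were higher and 2 were lower, with a median of 0.6, and 2 were highest in cortex. These were Tbr1 and Cplx3, a complexin that regulates vesicle fusion and marks subplate neurons. Cplx3 had 11.8, 12.2 and 14.0 CPM in cortex, against 0.293 to 0.44 CPM in cerebellum, 2.77 to 4.78 CPM in hippocampus and 2.06 to 5.5 CPM in olfactory bulb (2.98 ± 0.26 SE). Rprm, a mediator of cell cycle arrest, had 31.1 ± 1.22 CPM in cortex and 18.8 ± 1.53 CPM in olfactory bulb, the next region. Tle4, a corepressor of corticothalamic neurons, differed by 0.78 ± 0.08 (SE). Foxp2, a forkhead factor of layer 6 that is also abundant in striatal neurons, had 28.0, 47.7 and 41 CPM in cortex, against 36.1 to 42.8 CPM in olfactory bulb, so the difference of 1.66 ± 0.25 (SE) came from cerebellum and hippocampus. Svil, a membrane-bound actin-binding protein, was lower in cortex (-0.92 ± 0.15 SE).

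**Figure D2:**
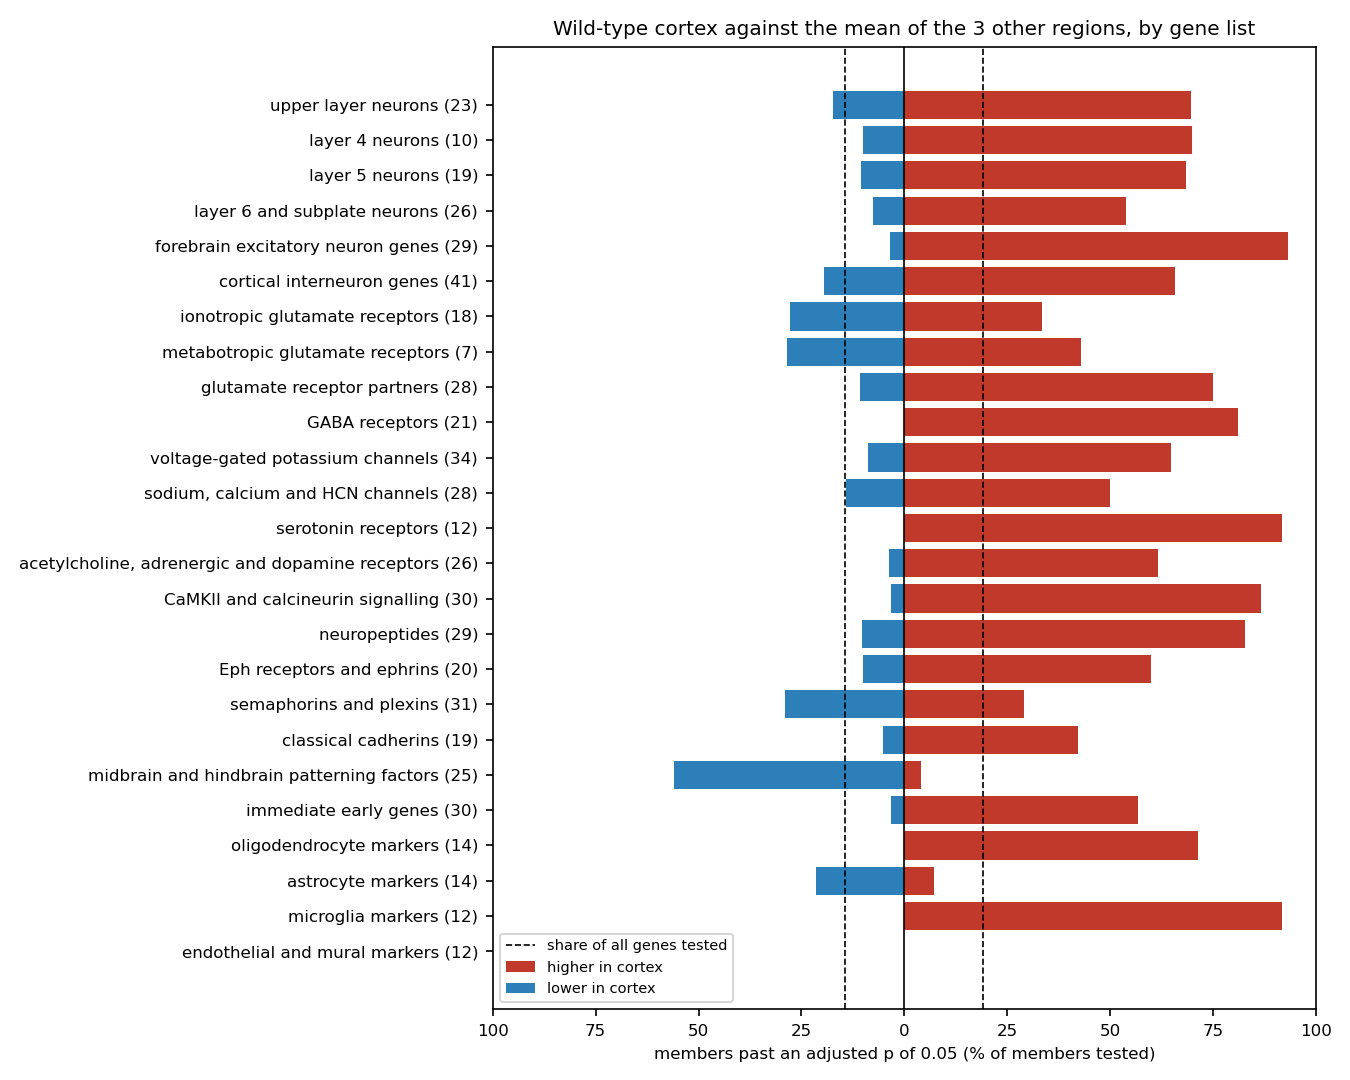
Share of the tested members of each gene list that were higher (red, right) or lower (blue, left) in wild-type cortex than in the mean of the 3 other regions at an adjusted p under 0.05, in percent, with the number of members tested in brackets. Dashed lines mark the 19.0% and 14.5% of all genes tested. Lists of neuronal genes extend past the right line, as do the microglia and oligodendrocyte markers. The midbrain and hindbrain patterning factors extend farthest past the left line. The lists of semaphorins and plexins, ionotropic and metabotropic glutamate receptors, astrocyte markers, interneuron genes and upper layer genes pass the left line too.

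Genes of forebrain excitatory neurons were nearly all higher in cortex. Of 29 members 27 were higher and 1, Neurod1, was lower, with a median of 2.27, against -0.01 over all genes tested. The 5 highest in cortex included Tbr1, Kcnv1, Camk2n1 and Lmo4. Camk2n1, an inhibitor protein of the kinase CaMKII, had 1620, 1670 and 1400 CPM in cortex, against 155 to 198 CPM in cerebellum, 444 to 487 CPM in hippocampus and 268 to 279 CPM in olfactory bulb (2.49 ± 0.08 SE, adjusted p = 2.42e-10). It was highest in cortex, whereas the kinase subunit Camk2a was not. Camk2a had 2780 ± 341 CPM in cortex, 3130 ± 388 CPM in hippocampus and 678 ± 89.2 CPM in olfactory bulb. Chrm1, the M1 muscarinic receptor, likewise had 235 ± 22.0 CPM in cortex and 279 ± 27.7 CPM in hippocampus. Slc17a7, the vesicular glutamate transporter VGLUT1, had 1120, 700 and 986 CPM in cortex and 896 to 931 CPM in hippocampus, groups that overlapped, against 295 to 414 CPM in olfactory bulb and cerebellum. Slc17a6, the transporter VGLUT2 of thalamus and brainstem, had 48.7 ± 17.1 CPM in cortex and did not pass (0.77 ± 0.37 SE, adjusted p = 0.131). It had 69.0 CPM in cerebellum replicate 1, against 17.7 and 15.5 CPM in replicates 2 and 3, and it passed as higher in cortex without that library, without all cerebellum libraries or with limma voom.

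The NeuroD family of bHLH factors, which drive neuronal differentiation, had 3 different orders over the regions. Neurod6 had 56.5, 65.1 and 39.8 CPM in cortex, against 2.38 to 3.33 CPM in cerebellum, 113 to 156 CPM in hippocampus and 0.625 to 0.713 CPM in olfactory bulb. Neurod2 had 52.5 ± 5.72 CPM in cortex, against 80.3 ± 7.18 CPM in cerebellum, 87.3 to 114 CPM in hippocampus and 2.15 ± 0.898 CPM in olfactory bulb. Neurod1, a granule cell factor, had 10.3 ± 2.81 CPM in cortex, against 285 ± 68.0 CPM in cerebellum, 15.9 ± 2.08 CPM in hippocampus and 4.79 ± 0.979 CPM in olfactory bulb. Cortex was thus below hippocampus in each of the 3, and the log2 fold changes from the mean of the regions were 3.06 for Neurod6, 0.99 for Neurod2 and -1.45 for Neurod1. The Neurod2 value turned to -0.79 without olfactory bulb and the Neurod1 value to 0.23 without cerebellum. Satb1, a chromatin organizer found in several neuron classes, averaged 168 ± 7.37 CPM in cortex and 128 ± 19.0 CPM in hippocampus (1.3 ± 0.1 SE), and Lhx2, a dorsal forebrain homeobox factor, was level in cortex and hippocampus (43.0 ± 10.6 and 41.8 ± 1.23 CPM).

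Of 41 interneuron genes 27 were higher and 8 were lower in cortex, against 19.0% and 14.5% of all genes tested, with a median of 1.05. Without cerebellum 13 were higher and 14 were lower. Lhx6, the factor of interneurons from the medial ganglionic eminence, had 17.6, 16.3 and 20.3 CPM in cortex, against 0.245 to 0.565 CPM in cerebellum, 12.1 to 15.2 CPM in hippocampus and 0 to 0.565 CPM in olfactory bulb (3.81 ± 0.24 SE, adjusted p = 6.45e-08). Dlx1, active in the whole ventral forebrain lineage, had 21.0 ± 3.41 CPM in cortex, 11.6 ± 0.972 CPM in hippocampus and 184 ± 6.13 CPM in olfactory bulb. Its value of 1.88 became -1.14 without cerebellum. Sox6, which acts after Lhx6, averaged 44.2 ± 4.35 CPM in cortex against 35.5 ± 4.81 CPM in hippocampus. Reln, the secreted guidance protein reelin, had 234 ± 23.7 CPM in cortex, against 980 ± 113 CPM in cerebellum, 163 ± 20.3 CPM in hippocampus and 725 ± 49.0 CPM in olfactory bulb (-1.06 ± 0.11 SE). Calb2, encoding calretinin, and Kit, a receptor tyrosine kinase, were also lower in cortex, at -1.8 ± 0.23 and -1.13 ± 0.12 (SE).

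Glutamate receptors were split. Of 18 ionotropic subunits 6 were higher and 5 were lower, against 19.0% and 14.5% of all genes tested. Their median was 0.06, and without cerebellum 1 was lower. Grin2b, an NMDA receptor subunit of the forebrain, had 622 ± 63.8 CPM in cortex, against 28.1 ± 5.27 CPM in cerebellum, 753 ± 156 CPM in hippocampus and 523 ± 16.6 CPM in olfactory bulb, and its difference of 1.48 became -0.01 without cerebellum. Grin2c, the cerebellar NMDA subunit, and Gria4, an AMPA receptor subunit of fast-spiking and cerebellar cells, were lower in cortex (-1.26 ± 0.17 and -0.78 ± 0.11 SE) and did not pass without cerebellum. Grid1, an orphan delta subunit, was 0.74 ± 0.1 (SE) higher.

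Among 7 metabotropic receptors tested 3 were higher, 2 were lower and Grm3 was highest in cortex. Grm3, an inhibitory group II receptor of neurons and astrocytes, had 163, 184 and 191 CPM in cortex, against 57.3 to 61.2 CPM in cerebellum, 81.5 to 96.8 CPM in hippocampus and 41.5 to 47.5 CPM in olfactory bulb (1.54 ± 0.08 SE, adjusted p = 1.26e-08). Grm5, a group I receptor, was higher in cortex (1.66 ± 0.27 SE). Grm5 had 402 ± 43.0 CPM in cortex, against 22.2 ± 17.0 CPM in cerebellum, 453 ± 46.2 CPM in hippocampus and 190 to 214 CPM in olfactory bulb. Grm4, a presynaptic receptor of cerebellar granule cells, was -1.46 ± 0.12 (SE) and did not pass without cerebellum.

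Receptor partner proteins included family members at opposite ends. Of 28 tested 21 were higher and 3 were lower, with a median of 0.51; 2 were highest in cortex, Cacng3 and Homer1, and 2 were lowest, Homer3 and Shisa6. Homer1, a scaffold that links group I receptors to internal calcium stores, had 655, 522 and 414 CPM in cortex, against 73.7 to 111 CPM in cerebellum, 219 to 278 CPM in hippocampus and 203 to 269 CPM in olfactory bulb (1.62 ± 0.14 SE, adjusted p = 1.08e-06). Homer3, of the same family, had 7.25, 4.54 and 5.33 CPM in cortex, against 157 to 192 CPM in cerebellum, 38.3 to 43.2 CPM in hippocampus and 13.9 to 16.1 CPM in olfactory bulb (-3.02 ± 0.15 SE, adjusted p = 6.85e-09). Cortex was thus at opposite ends of the 4 regions for the 2 scaffolds, with no overlap of libraries in either gene. Cacng3, an AMPA receptor subunit partner called TARP gamma-3, had 98.4, 98.3 and 88.2 CPM in cortex, against 5.09 to 5.82 CPM in cerebellum, 32.8 to 40.5 CPM in hippocampus and 18.7 to 28.3 CPM in olfactory bulb (2.5 ± 0.11 SE). Shisa6, which also binds AMPA receptors and keeps them at the synapse, had 38.4, 32.5 and 34.3 CPM in cortex, against 189 to 230 CPM in cerebellum, 239 to 294 CPM in hippocampus and 62.9 to 78.8 CPM in olfactory bulb (-2.15 ± 0.12 SE). With the cerebellum libraries left out, 9 of the 28 were higher and 5 were lower.

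Of 21 genes of inhibitory receptors 17 were higher and 0 were lower, with a median of 0.65. The list includes glycine receptors, and its 1 member highest in cortex was Glra2, a glycine receptor subunit. Gabra3 averaged 156 ± 15.4 CPM in cortex, against 106 ± 7.06 CPM in olfactory bulb, the next region, and Gabra4 averaged 153 ± 3.99 CPM in cortex, against 102 ± 14.5 CPM in hippocampus. Both encode alpha subunits of the GABA-A receptor, and in both the mean contrast passed (1.78 ± 0.13 and 1.47 ± 0.11 SE) and the stricter test did not. Gabrg3, a gamma subunit, had 80.1 ± 17.8 CPM in cortex and 46.3 ± 4.16 CPM in hippocampus. Gabbr2, a subunit of the metabotropic GABA-B receptor, was set apart from olfactory bulb more than from the others, with 506 ± 46.3 CPM in cortex, 357 ± 30.5 CPM in cerebellum, 396 ± 62.5 CPM in hippocampus and 64.5 ± 0.659 CPM in olfactory bulb.

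Potassium channel genes were higher in 22 and lower in 3 of 34 members tested, with a median of 0.97; Kcnv1 was highest in cortex. Kcnf1 and Kcng3, which encode silent subunits that form no channel alone, were higher by 2.48 ± 0.18 and 2.73 ± 0.19 (SE), and Kcnf1 did not pass without cerebellum. Kcnf1 averaged 168 ± 49.1 CPM in cortex and 258 ± 25.3 CPM in olfactory bulb, and Kcng3 averaged 13.9 ± 0.664 CPM in cortex and 14.7 ± 2.26 CPM in hippocampus. Kcnd2, the A-type Kv4.2 channel, was lower in cortex (-0.86 ± 0.09 SE). Of 28 sodium, calcium and HCN channel genes 14 were higher and 4 were lower, with a median of 0.38, and Scn4b was highest in cortex. The calcium channel subunits Cacna2d3 and Cacnb1 were higher by 1.42 ± 0.12 and 1.39 ± 0.12 (SE), and the pore subunit Cacna1c was lower (-0.64 ± 0.14 SE), not so without olfactory bulb or with the share of unassigned reads as a covariate. With that covariate 1 member of the list was lower.

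Receptors for serotonin were higher in 11 of 12 members tested and lower in 0, against 19.0% and 14.5% of all genes tested. Their median was 1.54, and 6 were higher without cerebellum. Htr2a, the excitatory receptor bound by psychedelic compounds, had 41.4, 49.1 and 44.4 CPM in cortex, against 0.628 to 2.02 CPM in cerebellum, 13.8 to 15 CPM in hippocampus and 16.6 to 22.9 CPM in olfactory bulb (2.65 ± 0.19 SE, adjusted p = 1.59e-07). Htr5a, an inhibitory receptor, had 26.3 ± 1.4 CPM in cortex, against 6.37 ± 0.294, 15.4 ± 0.61 and 14.1 ± 1.88 CPM in cerebellum, hippocampus and olfactory bulb. Both were highest in cortex. Htr1d had 5.25 ± 0.86 CPM in cortex and 3.53 ± 0.759 CPM in olfactory bulb, and Htr1b had 10.3 ± 2.06 CPM in cortex and 9.41 ± 0.0248 CPM in cerebellum. Among 26 receptors for acetylcholine, noradrenaline and dopamine 16 were higher and 1 was lower, with a median of 1.26. The 4 highest in cortex were Drd1, Drd2, Adra1b and Adrb1, the beta-1 adrenergic receptor, which had 21.8 ± 2.06 CPM in cortex, against 2.26 ± 0.626, 11.1 ± 1.67 and 4.38 ± 0.38 CPM in cerebellum, hippocampus and olfactory bulb. Chrm4 was level in cortex and olfactory bulb (33.1 ± 4.91 and 34.1 ± 6.34 CPM), and Chrnb4, a nicotinic subunit, was the member lower in cortex (-1.45 ± 0.32 SE), not so without olfactory bulb.

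Calcium-dependent kinases, phosphatases and their regulators were higher in 26 and lower in 1 of 30 members tested, with a median of 0.76, and Camk2n1, Camk2g, Rcan2 and Pde1b were highest in cortex. Pde1a, a calmodulin-activated phosphodiesterase, had 251 ± 28.4 CPM in cortex and 241 ± 15.4 CPM in hippocampus, against 4.2 ± 0.999 CPM in cerebellum and 22.4 ± 1.66 CPM in olfactory bulb (3.14 ± 0.1 SE). Prkcb, protein kinase C beta, had 747 ± 11.8 CPM in cortex and 575 ± 54.0 CPM in hippocampus. Ppp1r1b, the phosphatase inhibitor DARPP-32 of the striatum list, was highest in cortex, with 139, 192 and 228 CPM in cortex, against 67.1 to 74.9 CPM in cerebellum, 28.0 to 31.8 CPM in hippocampus and 4.75 to 13.2 CPM in olfactory bulb (2.78 ± 0.17 SE). Cortex replicate 1 was again the lowest of its group.

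**Figure D3:**
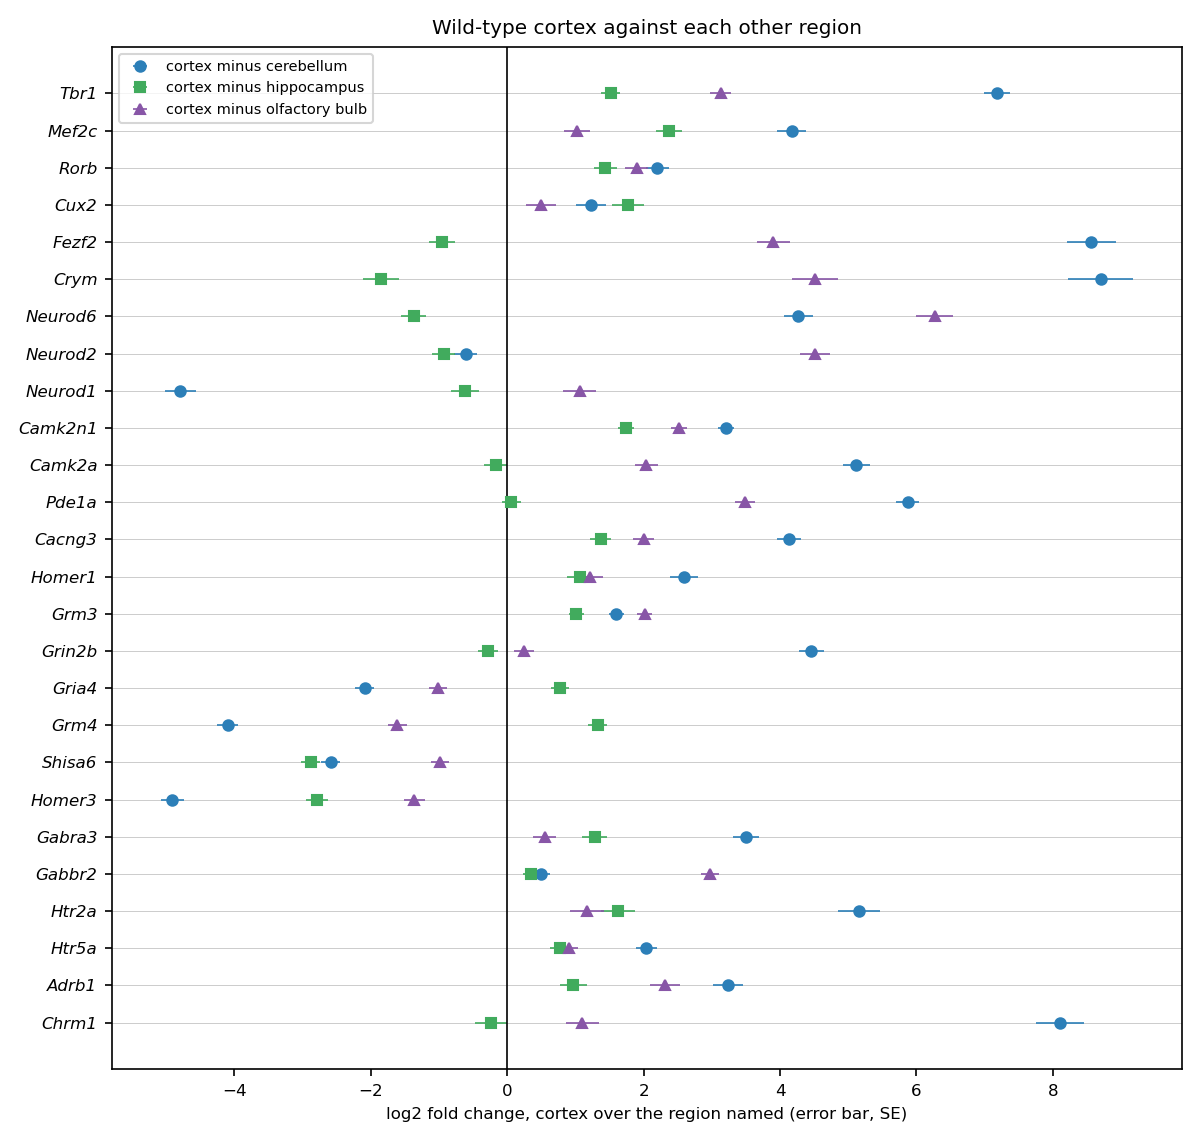
Log2 fold change of wild-type cortex over cerebellum (circles), hippocampus (squares) and olfactory bulb (triangles) for 26 named genes, with SE bars from the edgeR fit. Genes such as Rorb, Grm3 and Htr2a have all 3 points right of 0, Homer3 and Shisa6 all 3 left of it, and Fezf2, Crym and Neurod6 have the hippocampus point left of 0.

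Neuropeptide and secreted synaptic organizer genes were higher in 24 and lower in 3 of 29 members tested, with a median of 1.92, and Pdyn and Ecel1, given above, were highest in cortex. Penk, the enkephalin precursor and a striatum marker, had 148, 221 and 230 CPM in cortex, against 59.9 to 65.0 CPM in cerebellum, 13.1 to 19.2 CPM in hippocampus and 121 to 134 CPM in olfactory bulb (1.99 ± 0.12 SE). Trh, the thyrotropin-releasing hormone precursor, had 7.87 ± 3.0 CPM in cortex and 33.7 ± 1.83 CPM in olfactory bulb. The hypothalamic hormones Oxt and Avp passed both tests and are among the 203 genes highest in cortex, with log2 fold changes of 5.85 and 7.57. Their levels varied between cortex libraries. Oxt had 8.86, 1.75 and 6.58 CPM and Avp had 13.0, 0.619 and 4.5 CPM in cortex replicates 1 to 3. Any other wild-type library had at most 0.245 CPM for Oxt and 0.273 CPM for Avp. Markers of hypothalamus and pituitary together summed to 12.7 to 64.0 CPM in cortex, and to 1.71 to 11.3 CPM in 8 of the 9 other libraries, with 30 CPM in cerebellum replicate 1. The knockout cortex libraries had 2.96 to 52.6 CPM for that sum and the other knockout libraries 1.24 to 533 CPM, and the part of tissue from outside the cortex was not tested. Cbln1, a cerebellin that organizes parallel fibre synapses, was lower in cortex (-2.19 ± 0.37 SE), and did not pass without cerebellum.

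Among cell surface guidance molecules 12 of 20 Eph receptors and ephrins were higher and 2 were lower, with a median of 0.59; 6 were higher without cerebellum. Efnb2, a transmembrane ephrin, was highest in cortex (81.4, 80.4 and 74.9 CPM, against 22.5 to 26.7 CPM in cerebellum, 36.9 to 47.1 CPM in hippocampus and 39.0 to 47.3 CPM in olfactory bulb). Epha3, an ephrin-A receptor, was lowest in cortex, with 20.5, 21.3 and 18.3 CPM in cortex, against means of 43.4 ± 2.3, 32.0 ± 0.905 and 81.8 ± 9.0 CPM in cerebellum, hippocampus and olfactory bulb. Epha4, a receptor of broad specificity, had 300 ± 5.8 CPM in cortex and 486 ± 21.4 CPM in hippocampus, and Ephb6, a receptor without kinase activity, had 90.1 to 108 CPM in cortex and 65.7 ± 7.58 CPM in hippocampus. Semaphorins and plexins were evenly divided, with 9 higher and 9 lower of 31 tested, against 19.0% and 14.5% of all genes tested. Their median was -0.05, and Plxnd1 was highest in cortex. Sema3a, a repulsive cue for axons, was level in cortex and olfactory bulb (57.8 ± 5.42 and 58.0 ± 5.83 CPM), and Plxna2, a semaphorin receptor, had 372 ± 25.2 CPM in cortex and 283 ± 31.8 CPM in hippocampus. Of 19 classical cadherins, calcium-dependent adhesion molecules, 8 were higher and 1 was lower, with a median of 0.27. Cdh13, which lacks a transmembrane domain, and Cdh12 were highest in cortex. Cdh13 had 90.4 to 109 CPM in cortex and at most 65.3 CPM elsewhere, and Cdh12 had 52.3 to 68.2 CPM in cortex and at most 42.4 CPM elsewhere.

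Among genes lowest in cortex, the 12 described here had the largest differences of those with a mean of at least 1 log2 CPM and no overlap between cortex and the 9 other libraries. Il20rb, a cytokine receptor subunit, led them. It had 0.388, 0.825 and 0.666 CPM in cortex, against 39.4 to 49.9 CPM in cerebellum, 2.97 to 3.79 CPM in hippocampus and 1.78 to 2.62 CPM in olfactory bulb (-3.49 ± 0.24 SE, adjusted p = 1.14e-07). Dpf3, a subunit of the BAF chromatin remodelling complex, had 1.88, 1.34 and 1.72 CPM in cortex, against 23.5 to 36.4 CPM in cerebellum, 5.93 to 9.63 CPM in hippocampus and 7.69 to 7.87 CPM in olfactory bulb (-2.85 ± 0.22 SE). Tspan18, a tetraspanin, had 2.85, 2.78 and 3.06 CPM in cortex, against 15.3 to 28.3 CPM in cerebellum, 26.3 to 37.1 CPM in hippocampus and 9.75 to 14.0 CPM in olfactory bulb (-2.85 ± 0.23 SE). All 3 were low in every cortex library, and the region with the most differed, cerebellum for Il20rb and Dpf3 and hippocampus for Tspan18.

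Neb, which encodes the muscle protein nebulin, had 5.28 ± 0.465 CPM in cortex, against 86.0 ± 11.0, 8.84 ± 1.05 and 37.9 ± 3.3 CPM in cerebellum, hippocampus and olfactory bulb. Ror1, a receptor for Wnt5a, and Cdc42bpg, a kinase that acts on myosin, were lower by the contrast at -2.15 ± 0.21 and -2.1 ± 0.19 (SE). Akain1, an inhibitor of A-kinase anchoring, had 4.16 ± 1.18 CPM in cortex and at least 11.9 ± 0.26 CPM, in hippocampus, elsewhere. Slc2a9, a urate transporter, had 0.575 ± 0.23 CPM in cortex and at least 2.46 ± 0.947 CPM, in olfactory bulb, elsewhere. The genes Gm15712 and A930024E05Rik, which have no assigned role, were at -3.05 ± 0.39 and -1.99 ± 0.22 (SE), and Homer3 and Shisa6, given above, complete the 12.

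**Figure D4:**
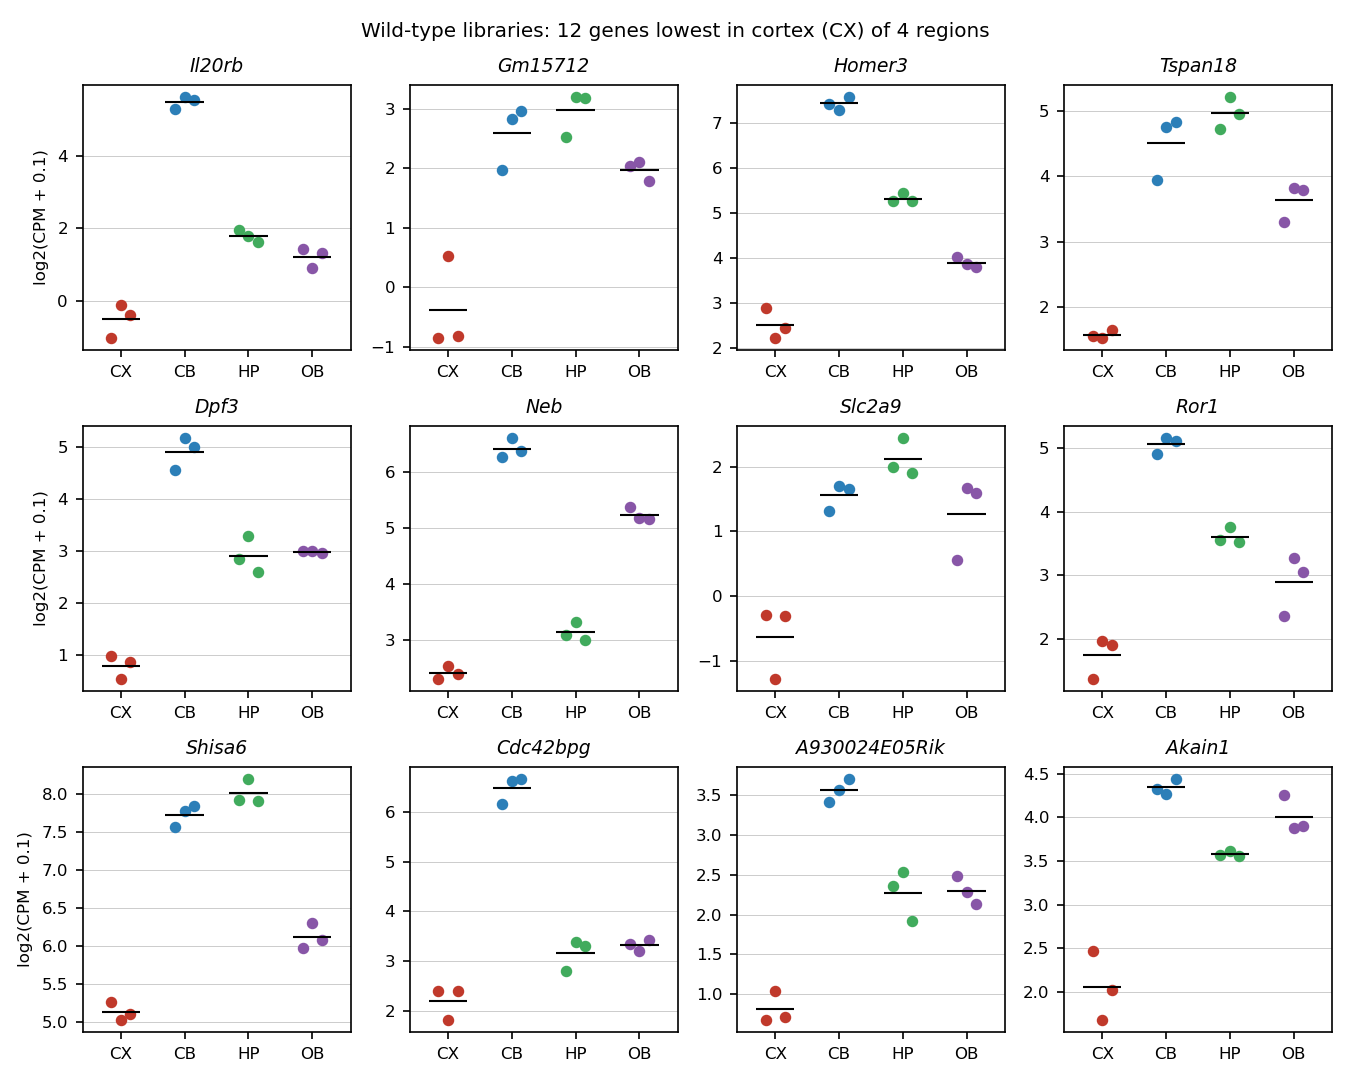
Levels of the 12 genes with the largest differences among those lowest in cortex that passed the filter on level and overlap, as log2(CPM + 0.1), in the 12 wild-type libraries, with regions, points and bars as in the plot of the genes highest in cortex. The cortex points lie below all others in every panel, and cerebellum or hippocampus has the highest mean.

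Genes that mark the other regions behaved unequally. Of 10 hippocampus markers 3 were higher and 4 were lower in cortex, against 19.0% and 14.5% of all genes tested. For cerebellum markers the counts were 1 and 7 of 10, and for olfactory bulb markers 1 and 4 of 10. Wfs1 and Nrp2 of the hippocampus list were higher (1.18 and 0.93). Calb1 of the cerebellum list (0.8) and Sp8 of the olfactory bulb list (1.72) were higher too. Calb1 changed sign without olfactory bulb and Sp8 without cerebellum. Zbtb20, a repressor that specifies the hippocampal CA1 field, was lowest in cortex, with 285, 408 and 322 CPM in cortex, against 501 to 601 CPM in cerebellum, 1040 to 1320 CPM in hippocampus and 613 to 689 CPM in olfactory bulb (-1.14 ± 0.12 SE, adjusted p = 6.43e-06). Dsp, a desmosomal plaque protein of dentate granule cells, had 1.49, 0.206 and 0.431 CPM in cortex, against 78.1 to 104 CPM in hippocampus, and did not pass when hippocampus was left out. Eomes, the T-box factor of mitral and tufted cells, had 2.85 ± 1.0 CPM in cortex, against 109 ± 14.8 CPM in olfactory bulb and 23.9 ± 3.87 CPM in cerebellum (-2.25 ± 0.22 SE).

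Factors that pattern the midbrain and hindbrain were mainly lower. Of 36 members 25 passed the filter on low counts, and of these 14 were lower and 1 was higher in cortex; 3 were lower without cerebellum. The 11 others were too low to test, so the counts do not describe the whole list. The zinc finger factors Zic1 and Zic2 had 34.9 ± 9.61 and 19.0 ± 5.07 CPM in cortex, against 755 ± 108 and 258 ± 9.43 CPM in cerebellum, and neither passed without cerebellum. Pax6, a paired box factor kept in granule cells and in bulb interneurons, had 11.8, 14.3 and 10.2 CPM in cortex, against 158 to 183 CPM in cerebellum, 8.8 to 13.9 CPM in hippocampus and 81.5 to 90.3 CPM in olfactory bulb (-2.18 ± 0.15 SE). Meis1, a homeobox cofactor, had 11.3 ± 3.13 CPM in cortex, against 139 ± 21.7, 3.42 ± 0.275 and 99.6 ± 3.34 CPM in cerebellum, hippocampus and olfactory bulb, so cortex was above hippocampus and far below the other two.

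Immediate early genes, which neurons switch on with activity and with handling, were higher in 17 and lower in 1 of 30 members tested, with a median of 0.78; 11 were higher without cerebellum. Homer1, given above as a scaffold, was the 1 member highest in cortex, and counts per gene do not separate its transcripts. Egr3 had 155, 87.7 and 106 CPM in cortex, against 0.377 to 1.6 CPM in cerebellum, 48.3 to 58.5 CPM in hippocampus and 27.1 to 33.5 CPM in olfactory bulb (3.33 ± 0.2 SE, adjusted p = 4.34e-08). Plk2, a kinase induced by synaptic activity, was level in cortex and hippocampus (248 ± 10.9 and 261 ± 33.4 CPM). Arc, which removes AMPA receptors from the synapse, had 185, 104 and 247 CPM in cortex, against 18.5 to 26.1 CPM in cerebellum, 98.0 to 159 CPM in hippocampus and 57.6 to 168 CPM in olfactory bulb. Its groups overlapped outside cerebellum, and its difference of 1.41 ± 0.28 (SE) did not pass without cerebellum or with the share of unassigned reads as a covariate. Dusp5, a phosphatase that acts on ERK, was the member lower in cortex, with 10.3 ± 1.45 CPM in cortex, against 99.1 ± 19.0, 19.5 ± 4.36 and 33.3 ± 8.04 CPM in cerebellum, hippocampus and olfactory bulb.

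Glial lists moved in different ways. Microglia markers were higher in 11 of 12 members tested and lower in 0, with a median of 0.89, and summed to 314 to 484 CPM in cortex, against 99.2 to 124 CPM in cerebellum, 327 to 417 CPM in hippocampus and 261 to 346 CPM in olfactory bulb. P2ry12, a purinergic receptor of resting microglia, had 34.1, 26.5 and 26.7 CPM in cortex, against 4.52 to 7.52 CPM in cerebellum, 16.4 to 24.9 CPM in hippocampus and 15.5 to 18.2 CPM in olfactory bulb (1.21 ± 0.16 SE). Csf1r, the receptor microglia need to survive, was 0.87 ± 0.14 (SE) and did not pass without cerebellum. With the share of unassigned reads as a covariate 6 of the 12 were higher, and without cerebellum 1 was.

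Oligodendrocyte markers were higher in 10 of 14 members and lower in 0, with a median of 0.52. The count was 1 without olfactory bulb, 4 without cortex replicate 3 and 2 with the share of unassigned reads as a covariate. Mal, a myelin lipid raft protein, was level in cortex and hippocampus (222 ± 25.7 and 224 ± 40.3 CPM) and above cerebellum (125 ± 11.9 CPM) and olfactory bulb (77.5 ± 0.779 CPM). Of 7 precursor markers 4 were higher, among them Pdgfra, the growth factor receptor that defines these cells (0.81 ± 0.1 SE). Of 14 astrocyte markers 1 was higher and 3 were lower, against 19.0% and 14.5% of all genes tested. The lower count was 7 with the share of unassigned reads as a covariate and 5 with DESeq2, at a minimum count of 50, under the replicate block or without olfactory bulb, and the higher count was 3 without cortex replicate 2 or with limma voom. The one higher was Slc1a2, the main glutamate uptake transporter, with 6230, 5980 and 5880 CPM in cortex, against 1380 to 1710 CPM in cerebellum, 4620 to 5530 CPM in hippocampus and 1930 to 2130 CPM in olfactory bulb (1.27 ± 0.08 SE, adjusted p = 6.94e-08). The bicarbonate transporter Slc4a4 and the water channel Aqp4 were lower (-0.72 ± 0.08 and -0.53 ± 0.14 SE), Aqp4 not so without cerebellum. Among 12 endothelial and mural, 13 meningeal and 8 blood cell markers 0 passed in either direction, and choroid plexus markers, which passed in 1 of 8, varied between libraries of a region, from 16.6 to 253 CPM within cortex and from 22.8 to 2270 CPM among the 9 others.

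The same contrast was computed in the 12 Cdr1as knockout libraries, which share no sample with the wild-type ones. There 2748 of 16764 genes tested (16.4%) were higher and 1797 (10.7%) were lower in knockout cortex than in the mean of the other knockout regions. Of the 3221 genes higher in wild-type cortex, 3198 were tested in knockout libraries, 3176 (99.3%) had the same sign and 2317 passed as higher, 72.5% of the wild-type genes tested there and 84.3% of the knockout list. Of the 2458 genes lower in wild-type cortex, 2437 were tested, 2410 (98.9%) had the same sign and 1304 passed as lower, 53.5% of the wild-type genes tested there and 72.6% of the knockout list. None passed in the opposite direction. The share with the same sign over all genes tested in both genotypes was not computed. For the stricter test, 95 of 202 genes highest in wild-type cortex (47.0%) were also highest in knockout cortex, where 0.817% of genes were, and 19 of 37 (51.4%) were also lowest, where 0.292% were. All 202 and all 37 kept their sign, with median log2 fold changes in knockout libraries of 1.68 for genes highest and -1.42 for genes lowest in wild-type cortex. The values in knockout libraries were 3.78 for Tbr1, 2.48 for Cacng3, -3.08 for Homer3 and -2.46 for Shisa6, each past the threshold. Of the 12 genes described as lowest in wild-type cortex, 11 were lower in knockout cortex too, and Slc2a9 did not pass (-1.56).

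**Figure D5:**
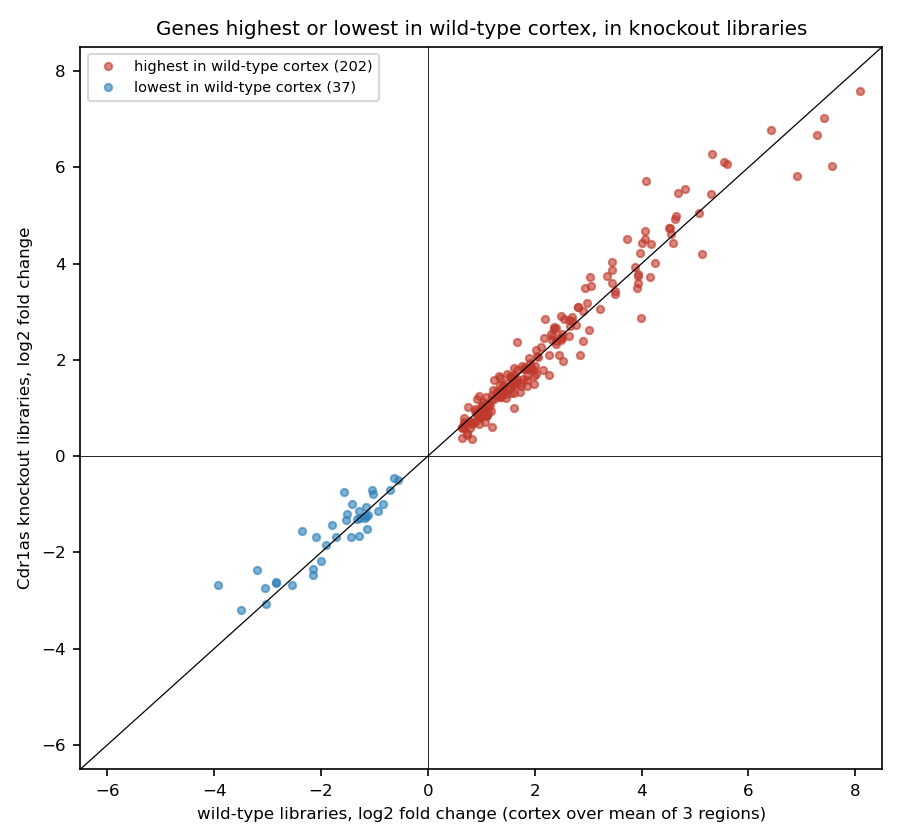
Log2 fold change of cortex over the mean of the 3 other regions in knockout libraries against the same value in wild-type libraries, for the 202 genes highest (red) and 37 genes lowest (blue) in wild-type cortex that were tested in both, with a line of equality. All points have the same sign in both genotypes.

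For Cdr1as itself the difference between wild-type cortex and the mean of the regions did not pass (-0.32 ± 0.18 SE, adjusted p = 0.202). It had 983, 1230 and 737 CPM in cortex, against 4140 ± 230 CPM in cerebellum, 502 ± 191 CPM in hippocampus and 882 ± 72.0 CPM in olfactory bulb (SD, n = 3 each), and the value was 0.56 without cerebellum.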

How the data were processed

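Total RNA of dissected brain regions was depleted of ribosomal RNA with RNase H and made into stranded libraries, per the labels' protocols. The deposited values were raw read counts per Ensembl gene. The submitters' processing notes name bcl2fastq 2.17.1.14, STAR 2.5.1b, HTSeq 0.6.1p1 and the mm9 build, while whether counting used the strand is not given in the sources used here, so overlapping and antisense genes are uncertain. The 5 summary entries of each file were left out, and 98.56% of counts lay in named genes. The 37 mitochondrially encoded genes had 0 counts.

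Genes were filtered with filterByExpr (minimum count 10), scaled by TMM and tested with edgeR 4.0.16 (quasi-likelihood, robust) in R 4.3.3 on the 12 wild-type libraries, with Benjamini-Hochberg adjustment. The stricter test took the largest of the 3 pairwise p-values where all signs were equal. In simulated counts it was checked that 97% of genes changed by 2 on the log2 scale, 65.7% by 1 and 19.7% by 0.5 were recovered by the main contrast. The stricter test recovered 89.6%, 49.3% and 0% of them, so a gene that fails it can still differ. The changed genes had a mean over 1 CPM, and the 3 other regions were simulated at equal levels. These shares therefore do not carry over to genes of lower level or to regions that differ from each other. The CPM values are TMM-scaled and not length-corrected, so levels are compared between libraries and not between genes. DESeq2 1.42.0 and limma 3.58.1 served as alternatives.

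Named genes were the 12 largest differences in each direction among genes passing the stricter test whose cortex libraries stood apart from the 9 others and whose mean level was 1 or more in log2 CPM, the 4 members of each list with the smallest p, up to 2 members opposite to their list, and a short set of cortical genes. Not every gene that this rule admits is named, and some of its results are not reported here. Unc5d, Otof, Lmo4, Glra2, Adra1b, Camk2g, Rcan2 and Pde1b were named after their values were seen. Members and lists were chosen with earlier results of these data known.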

Additional observations from a re-analysis of the deposited data

How the results depend on the processing

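In wild-type libraries the main counts of 3221 genes higher and 2458 lower were 5071 and 4777 with limma voom, 537 and 128 when tested against a 2-fold change (log2 of 1), and 2052 and 1308 without the cerebellum libraries. With the share of unassigned reads as a covariate they were 2427 and 1525. The replicate block gave 3560 and 3032. Same-numbered wild-type cortex libraries correlated, in deviations from group means, at 0.375, 0.337 and 0.325 with cerebellum, 0.125, 0.198 and 0.137 with olfactory bulb, and 0.439, 0.327 and -0.107 with hippocampus for replicates 1, 2 and 3. Among the hippocampus libraries alone, cortex replicate 3 correlated best with replicate 1 (0.0967) rather than with its own number. Differently numbered wild-type pairs spanned -0.439 to 0.156. In knockout libraries same-numbered pairs spanned -0.0365 to 0.352 and differently numbered ones -0.262 to 0.161. Most same-numbered pairs thus lay above most others. The labels do not say whether equal numbers share an animal, so the main fit did not pair the libraries by number. Its p-values leave any such pairing out. Whether equal numbers mark a shared animal or batch was not tested. Leaving out 1 library gave 2486 to 3641 genes higher and 1472 to 3117 lower; lower calls were 1472 without cortex replicate 1 and 1537 without cortex replicate 3. For the stricter test, 203 highest and 37 lowest became 344 and 93 with DESeq2, 685 and 446 with voom, 15 and 1 against a 2-fold change, 306 and 83 without cerebellum, 1607 and 1116 without hippocampus and 396 and 144 without olfactory bulb, tests with 1 region fewer to pass. The block gave 287 and 88. Leaving out 1 library gave 113 (cortex replicate 3) to 330 (cortex replicate 2) highest, with 120 and 124 without hippocampus replicates 2 and 3, and 14 (cortex replicate 3) to 190 (cortex replicate 2) lowest, with 22 without cortex replicate 1 or hippocampus replicate 3 and 21 without olfactory bulb replicate 2. In knockout libraries 2748 and 1797 became 4869 and 4408 with voom, 1099 and 496 with the covariate and 463 and 107 against a 2-fold change. Leaving out 1 library gave 1907 to 3495 and 981 to 2317, the fewest lower without cortex replicates 1 (1046) and 3 (981). Causes were not tested. List counts of 5 or fewer members often moved by over 1.5 times without 1 library or region.

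Single genes changed sign as follows. Without cerebellum, Dlx1 was -1.14, Bcl11b -0.13, Grin2b -0.01, Cdr1as 0.56 and Neurod1 0.23. Without olfactory bulb, Neurod2 was -0.79. Sp8 without cerebellum and Calb1 without olfactory bulb also changed sign. Cux1, at 0.01 in the main contrast, was -0.03 at a minimum count of 50, -0.07 with voom, -0.62 without hippocampus, -0.01 without replicate 1 of cerebellum or hippocampus and from -0.06 to 0.07 without cortex replicate 2 or 1. The shallowest wild-type library held 7.4 M counts, which limits genes of low level.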
